A study of Mus musculus with 2 samples.

Results

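The strongest distal accessible sites of the mouse cerebral cortex were 391 DNase I hypersensitive peaks, out of 150726 peaks listed for replicate 1 and 155536 for replicate 2. They were chosen by their peak signal: a peak of replicate 1 with a signal of at least 5 had to overlap a peak of replicate 2 that also reached 5. Its centre had to lie over 2 kb from every GENCODE M21 transcription start on chromosomes 1 to 19. Of 98497 distal peaks of replicate 1 on those chromosomes, 391 met this rule (0.397%), a share fixed by the rule itself. Peak signal is the authors' value per peak, a cleavage density that the deposited notes describe as normalized to read depth.

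The study mapped open chromatin by DNase-seq in the left cerebral cortex of male B6CASTF1/J mice at 14 days of age. These animals are first-generation hybrids of C57BL/6J and CAST/EiJ, so each carries both genomes, while the files use the mm10 assembly of C57BL/6J. There was 1 group with 2 biological replicates and no treatment or comparison group. The label of replicate 1 names 3 males and that of replicate 2 names 1 male, and 1 donor identifier is shared by both labels, possibly because it denotes the strain. The spread between these libraries may therefore be partly technical, and it cannot be told apart from a difference between pooled and single animals.

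DNase I cuts DNA where nucleosomes are displaced, mostly at promoters, enhancers and insulators. Within such a site, a bound protein can shield a short stretch from cleavage, which is called a footprint. CTCF, a zinc finger protein present in nearly every cell type, binds insulators and the anchors of chromatin loops together with cohesin, and it leaves wide footprints. Distal sites can also be CpG islands, enhancers or starts of transcripts that an annotation lacks. In bulk tissue, a site open in more cells and a site more open per cell cannot be told apart.

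The tissue label was checked on promoter peaks within 1000 bp of a start. All 6 neuron markers, 6 of 6 excitatory, 5 of 5 inhibitory and 5 of 5 astrocyte markers were open in both libraries, as were 4 of 4 oligodendrocyte precursor markers. The count was 2 of 5 oligodendrocyte and 3 of 4 microglia markers in replicate 1, 3 of 5 and 4 of 4 in replicate 2, and 3 of 4 vascular markers in each library. Of 3 choroid plexus markers 1 was open in replicate 1 and 0 in replicate 2. Of the liver markers 1 of 4 was open in replicate 1 and 0 of 4 in replicate 2, and 0 of 3 erythroid markers were open in either library.

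The first set of sequences shows 5 of the highest sites that were not made mostly of repeated sequence, since they show how many separate stretches lay in footprints. The names are those of the nearest protein-coding genes. The sequences are the whole peaks of replicate 1 on mm10 (GRCm38), taken from RefSeq GRCm38.p6, and capitals mark bases inside a footprint in both libraries.
Irf2bp2 site, chr8:126666541-126666760, plus strand: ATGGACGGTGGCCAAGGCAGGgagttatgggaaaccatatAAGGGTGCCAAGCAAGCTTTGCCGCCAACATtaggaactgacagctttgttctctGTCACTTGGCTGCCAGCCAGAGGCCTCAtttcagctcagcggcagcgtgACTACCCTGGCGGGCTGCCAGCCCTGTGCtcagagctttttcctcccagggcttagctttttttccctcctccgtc
Cstad site, chr2:30658501-30658720, plus strand: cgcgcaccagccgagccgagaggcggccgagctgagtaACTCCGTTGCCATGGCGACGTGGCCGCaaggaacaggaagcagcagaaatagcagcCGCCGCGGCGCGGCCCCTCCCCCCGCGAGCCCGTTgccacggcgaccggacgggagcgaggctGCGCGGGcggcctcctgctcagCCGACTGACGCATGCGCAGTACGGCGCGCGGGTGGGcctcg
C87436 site, chr6:86472201-86472480, plus strand: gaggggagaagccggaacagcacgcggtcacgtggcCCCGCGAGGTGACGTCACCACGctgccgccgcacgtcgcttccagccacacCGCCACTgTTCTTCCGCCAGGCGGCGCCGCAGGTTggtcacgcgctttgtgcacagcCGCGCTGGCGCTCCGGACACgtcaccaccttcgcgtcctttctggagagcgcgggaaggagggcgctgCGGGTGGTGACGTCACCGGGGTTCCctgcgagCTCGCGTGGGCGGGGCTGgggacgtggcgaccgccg
Igf1r site, chr7:68129121-68129260, plus strand: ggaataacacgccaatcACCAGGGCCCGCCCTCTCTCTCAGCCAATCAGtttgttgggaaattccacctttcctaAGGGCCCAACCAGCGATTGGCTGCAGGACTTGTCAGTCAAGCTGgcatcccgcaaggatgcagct
Tle2 site, chr10:81571641-81571840, plus strand: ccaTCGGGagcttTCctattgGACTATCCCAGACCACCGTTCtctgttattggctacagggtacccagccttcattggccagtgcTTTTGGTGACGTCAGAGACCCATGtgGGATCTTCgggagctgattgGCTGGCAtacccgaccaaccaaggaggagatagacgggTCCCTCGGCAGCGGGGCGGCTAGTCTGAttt

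The second set shows the 5 highest sites with a CTCF consensus word, read in the orientation of the word. Capitals mark the word of 12 bases, and 20 bases are given to each side.
Nanog site, chr6:122669524-122669575, plus strand: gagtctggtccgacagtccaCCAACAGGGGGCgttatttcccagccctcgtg
Nuak1 site, chr10:84438184-84438235, minus strand: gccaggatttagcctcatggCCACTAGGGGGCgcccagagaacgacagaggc
Camta1 site, chr4:151141701-151141752, minus strand: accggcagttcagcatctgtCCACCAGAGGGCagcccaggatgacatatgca
B3galnt2 site, chr13:13889639-13889690, plus strand: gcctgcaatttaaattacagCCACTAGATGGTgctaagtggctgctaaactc
Ccnl1 site, chr3:65974737-65974788, plus strand: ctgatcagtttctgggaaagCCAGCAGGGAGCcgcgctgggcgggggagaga

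The site near Irf2bp2, which encodes a transcriptional corepressor, was intergenic at 72.7 kb from that gene's start, with a signal of 14.2 in replicate 1 and 18.6 in replicate 2. The peak near Cstad lay in an exon of the noncoding gene Gm14486 and had 31 CpG dinucleotides in its central 200 bp, with signals of 14.3 and 17.6. The peak in an exon of C87436 held 27 CpG and had signals of 14.2 and 14.9. An intronic site of Igf1r, the receptor of insulin-like growth factor 1, was 19.4 kb from the nearest protein-coding start, with signals of 12.1 and 16.0. The site near Tle2, a corepressor of the Groucho family, stood 2.82 kb from the start, with signals of 11.4 and 16.6. None of these 5 held the CTCF word, and all of them were higher in replicate 2.

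The highest site not made mostly of repeated sequence lay in an exon of the ceramide synthase gene Cers5, 10.2 kb from the start of Cox14, with a signal of 25.3 in replicate 1 and 18.8 in replicate 2. It held 1 CpG in 200 bp, against the median of 8 over the 391 sites. Others among the 12 highest were nearest to Map1lc3b, an autophagy protein, Ptma (prothymosin alpha), Kcnn1, a calcium-activated potassium channel, Irf2bpl, and Prdm2, a PR-domain zinc finger protein. None of the 12 carried the CTCF word in its central 200 bp.

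Across the 391 sites, signal had a median of 6.68 in replicate 1, from 5.00 to 31.6, and a median of 6.80 in replicate 2, from 5.01 to 18.8. The distribution was steep: in 189 sites the lower of the library signals was under 6, in 88 it was at least 7.5 and in 27 it was at least 10. Log10 signals correlated across sites with Pearson r = 0.639 (n = 391 sites that share the same libraries), and 322 sites lay within 0.5 of each other on the log2 scale. Peaks under 5 in either library were left out by the rule, so neither value measures agreement between the libraries over all distal peaks. Low signals in the files came in even steps, of 0.00474 for replicate 1 and 0.00614 for replicate 2. If a step is 1 read, the threshold stands for about 1056 and 814 reads, and the counting error there is 3.08% and 3.50%.

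The threshold fell in a dense part of the distribution. Just inside it stood the sites near Hnrnpu, with signals of 5.00 and 6.38 in replicates 1 and 2, Laptm5, with 5.91 and 5.01, and Fgd2, with 5.70 and 5.01. Just outside it stood the sites near Csk, with 6.47 and 4.99993, Gpm6a, with 4.99608 and 7.76, and Ddx1, with 6.15 and 4.99. All 742 distal peaks of replicate 1 that reached 5 overlapped some peak of replicate 2, and 351 of them overlapped none that reached 5. All 391 sites were also in the stricter peak lists of both libraries, and 193 had the same start and end in both.

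**Figure D1:**
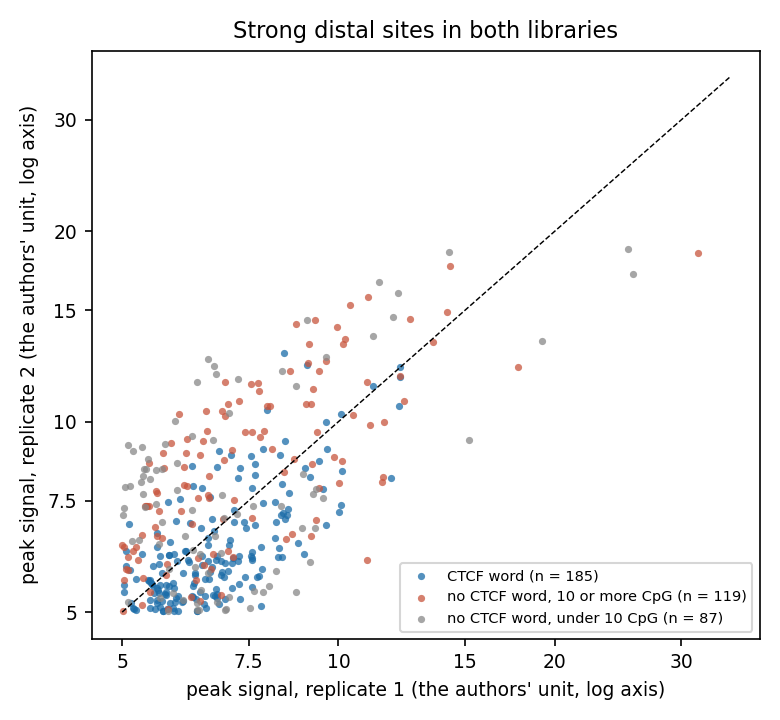
Peak signal of each of the 391 sites in replicate 1 (horizontal, log axis) and replicate 2 (vertical, log axis), in the authors' unit, coloured by the CTCF word and by the number of CpG in the central 200 bp. The dashed line marks equal signal. Sites with the CTCF word gather near the threshold of 5 and mostly below the line, and those without it spread further and mostly above it.

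The strong distal sites lay mostly outside genes. By the centre of the peak, 224 of 391 were intergenic (57.3%, 95% Wilson interval 52.3 to 62.1%), 133 were intronic (34.0%), 27 lay in noncoding parts of exons (6.91%) and 7 in coding exons (1.79%). Of 75938 other distal peaks found in both libraries, 46.5% were intergenic, 48.6% intronic, 3.01% in noncoding exon parts and 1.87% in coding exons. By the lower of the library signals, the intergenic share was 40.2% from 0.5 to 1, 55.0% from 3 to 4 and 57.6% from 4 to 5. It was 55.8% from 5 to 7.5, 68.9% from 7.5 to 10 and 48.1% from 10 upward. Peaks just below the threshold thus had a similar share. Sites within a library are not replicates, so no test was made of this or the following differences between groups of sites, and the intervals cover counting error only.

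They also stood closer to genes than other distal peaks. The nearest protein-coding start was a median of 12.7 kb away, against 31.8 kb for other distal peaks, and 96 sites (24.6%) lay 2 to 5 kb from it, against 11.2% of other distal peaks. Only 13 sites (3.32%) were over 200 kb from one, against 13.1%. The nearest annotated start of any kind was that of a protein-coding gene in 231 sites, a lincRNA in 42 and a processed pseudogene in 41.

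Some of these sites were distal only by the annotation used. In RefSeq, a second annotation, a start lay within 1 kb of 31 of the 391 sites (7.93%), against 3.15% of other distal peaks, and within 2 kb of 45 (11.5%), against 5.12%. Among them were the sites near Kcnn1 (110 bp from the RefSeq start), Sf3b5 (19 bp), Prdm2 (89 bp) and Kdm6b (51 bp), which encode a potassium channel, a splicing factor subunit, a PR-domain protein and a histone demethylase. Of the 31 sites, 26 had no CTCF word.

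The most frequent sequence feature was the CTCF word. It was searched by its consensus of 12 letters with up to 1 mismatch, on both strands, in the 200 bp around the centre of each peak. It stood in 185 of 391 sites (47.3%, interval 42.4 to 52.3%), in 6.69% of 4723 peaks within 2 kb of a start that met the same signal rule, and in 18.5% of other distal peaks. In windows of the same length placed 1 kb to the left and right of the sites it stood in 2.56% and 2.30%. With no mismatch allowed it stood in 21.5% of the sites, 1.27% of the strong peaks near starts and 6.10% of other distal peaks. A match describes the letters, not binding.

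By the lower of the library signals, the CTCF share was highest from 3 to 4. Over all distal peaks of both libraries, ordered by the lower of their signals, the share with the word was 8.25% under 0.5, 15.6% from 0.5 to 1, 34.8% from 1 to 2, and 56.4% from 2 to 3. It was 60.9% from 3 to 4, 60.2% from 4 to 5, 52.8% from 5 to 7.5, 32.8% from 7.5 to 10 and 18.5% (5 of 27 sites) from 10 upward. Of all 88 sites that reached 7.5 in both libraries, 25 held the word (28.4%, interval 20.04 to 38.6%). With the sites near RefSeq starts left out it was 35.2% (25 of 71 sites), and with multicopy sites left out 29.8%. The height at which the share was highest depended on the library. By replicate 1 alone it was 65.5% from 3 to 4, 71.1% from 4 to 5, 66.7% from 5 to 7.5 and 40.7% from 7.5 upward. By replicate 2 alone it was 43.6% from 3 to 4, 41.0% from 4 to 5, 36.3% from 5 to 7.5 and 21.8% from 7.5 upward.

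CpG-rich peaks were most frequent from a signal of 7.5 upward. The share of distal peaks with at least 10 CpG in 200 bp was 1.73% under a signal of 0.5, 3.19% from 0.5 to 1, 5.36% from 1 to 2, 7.37% from 2 to 3, 13.2% from 3 to 4, 19.1% from 4 to 5, 34.3% from 5 to 7.5, 63.9% from 7.5 to 10 and 55.6% from 10 upward. In all, 158 of the 391 sites reached 10 CpG (40.4%, interval 35.7 to 45.3%), against 93.4% of strong peaks near starts and 3.38% of other distal peaks. Median GC content was 56.0% in the sites, 65.0% in strong peaks near starts and 49.5% in other distal peaks.

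**Figure D2:**
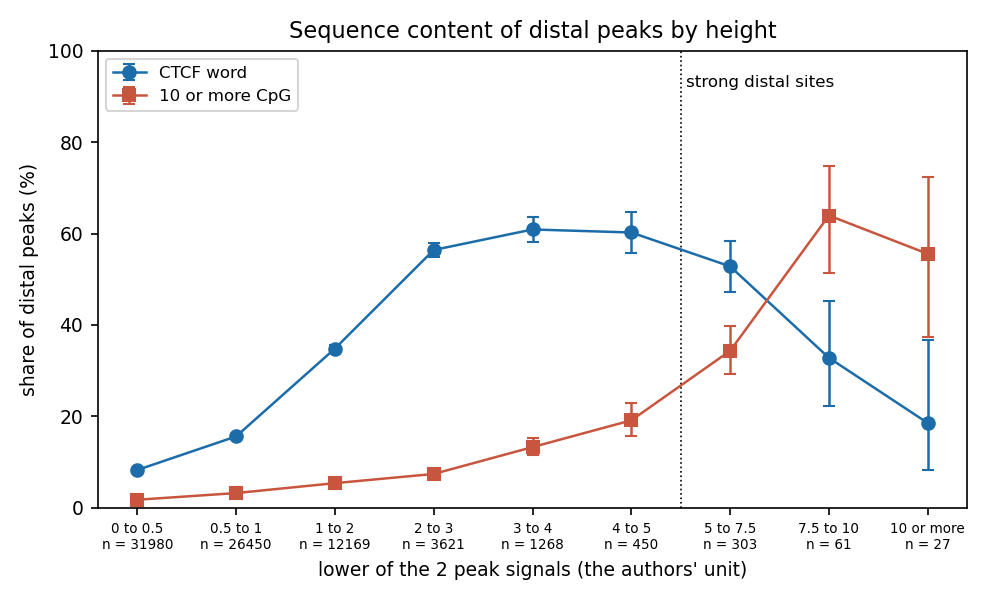
Share of distal peaks of both libraries with the CTCF word (circles) and with at least 10 CpG (squares) in the central 200 bp, by the lower of the library signals in the authors' unit. Bars are 95% Wilson intervals, n is the number of peaks, and the dotted line marks the threshold of 5. The CTCF share peaks at 60.9% between 3 and 4, and the CpG share is the larger of the pair from 7.5 upward.

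By these features the sites fell into 4 sequence classes of unequal height. The largest, 146 sites with the CTCF word and under 10 CpG, had a median mean signal of 6.25, and 39 sites with the word and at least 10 CpG had 6.56. The 119 sites without the word and with at least 10 CpG had a median of 7.88, and the 87 sites with neither had 6.98. The limit of 10 CpG was chosen after the values were seen, and these heights are a description, because signal chose the sites.

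Between the classes without the CTCF word, the shares with the NFI, RFX, NRF1 and GC box words were furthest apart as counted, with no test. The NFI word, named for the nuclear factor I family, stood in 22 of the 87 sites with neither CTCF word nor high CpG (25.3%), and the RFX word in 16 (18.4%). In the 119 CpG-rich sites without the CTCF word, NFI stood in 1 and RFX in 8, while the NRF1 word stood in 19 (16.0%) and the GC box GGGGCGGGG in 15 (12.6%), against 4 (4.60%) and 1 (1.15%) of the 87. Near-equal shares of the CpG-rich and the other class held the CCAAT box word CCAATCA (10.1% and 10.3%), the cyclic AMP response element (6.72% and 6.90%) and the AP-1 word (5.88% and 5.75%). The NRF1 and GC box words hold CpG themselves and the classes were split by CpG, so their differences are partly built into the split. NRF1, the factors at GC boxes, and NF-Y, which binds CCAAT boxes, are known from CpG-rich promoters. The CCAAT word was added after the sequences above had been seen.

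Compared with other distal peaks, words known from promoters were more frequent, and the AP-1, MEF2 and E-box words less frequent. The groups differ in base composition, with a median of 8 CpG in the sites against 3, and a median GC content of 56.0% against 49.5%. The NRF1, cyclic AMP response element and GC box words hold CpG. How far composition sets the shares of these and the other words was not tested. NRF1 stood in 7.16% of the strong distal sites, 14.8% of strong peaks near starts and 0.417% of other distal peaks. The cyclic AMP response element TGACGTCA stood in 4.09%, 5.76% and 0.383% in the same order, and the GC box in 5.63%, 20.7% and 0.931%. The RFX word stood in 6.91% of the sites, 3.79% of strong peaks near starts and 3.57% of other distal peaks.

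The AP-1 word TGANTCA stood in 6.14% of the sites, against 11.6% of other distal peaks, and the MEF2 word in 0.767%, against 3.36%. The E-box CAGCTG stood in 15.9%, against 20.4%, and NFI in 8.44%, against 11.98%. The E-box CAGATGG of NeuroD-type factors stood in 7.67% of the sites and 12.4% of other distal peaks. It can lie inside a CTCF word, and it did so in 13 of its 30 sites; outside it the share was 4.35%, against 11.1% of other distal peaks. Among peaks with the CTCF word the order was another one: AP-1 stood in 6.49% of the sites and 6.06% of other distal peaks, and CAGCTG in 17.8% and 13.8%. Among the other pairs of words, at most 1 site had overlapping matches. By the lower of the library signals, AP-1 stood in 13.2% of distal peaks under 0.5, 5.28% from 3 to 4 and 5.33% from 4 to 5. The AP-1 share in the sites was thus not below that of peaks just under the threshold. From 4 to 5, MEF2 stood in 2%, CAGATGG in 8.67% and NFI in 11.3%, each above its share in the sites.

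Of the remaining words, YY1 stood in 2.30% of the sites, against 0.643% of other distal peaks, and ZNF143 in 2.81%, against 0.694%. The ETS word CCGGAAGT stood in 1.53%, against 0.259%, and the EGR word GCGTGGGCG in 1.53%, against 0.163%. The octamer ATGCAAAT stood in 1.79%, against 1.67%, the homeobox word TAATTA in 2.30%, against 4.003%, and the NR4A word AAAGGTCA in 1.02%, against 0.456%. REST stood in 0.767%, against 0.344%, and the T-box word TCACACCT in 0.256%, against 0.847%. No word of the list stood in 81 of the 391 sites (20.7%), against 33.1% of other distal peaks, and 50 of those 81 had at least 10 CpG.

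**Figure D3:**
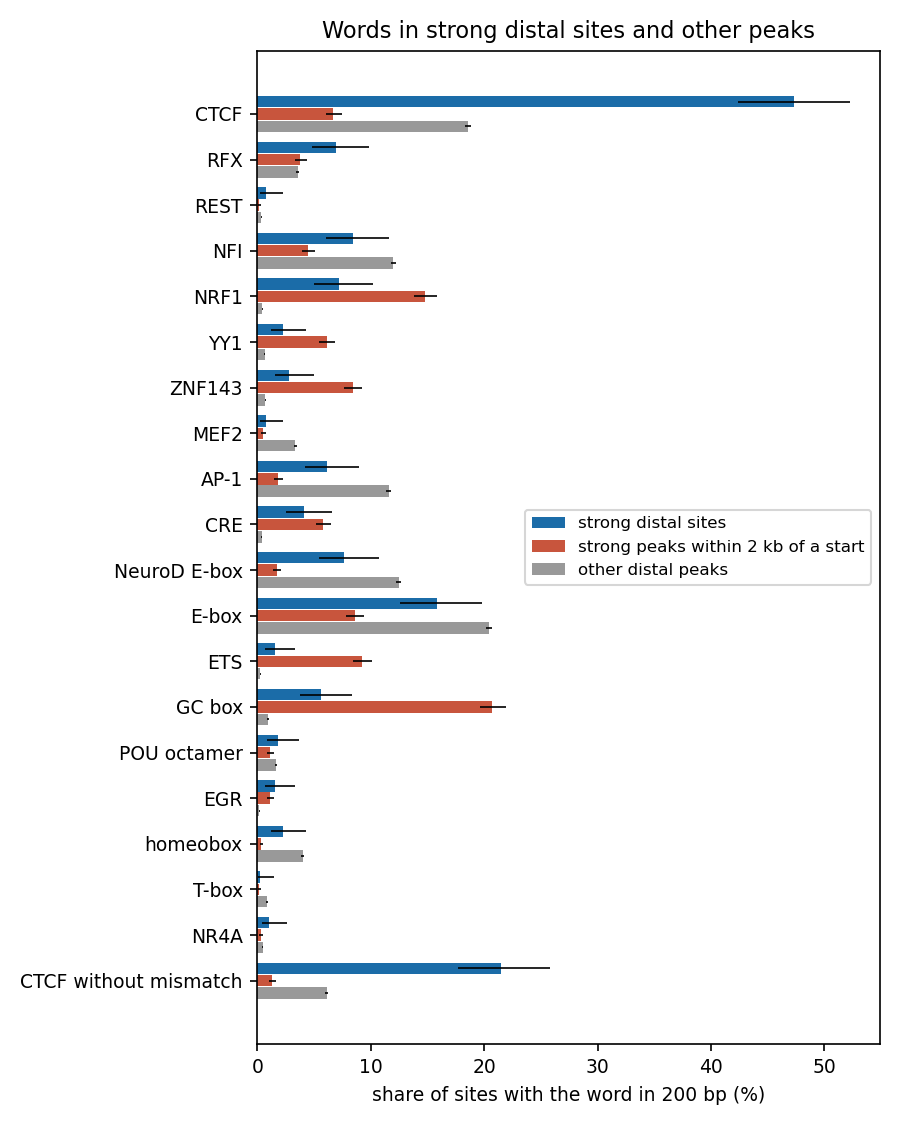
Share of peaks with each word in the central 200 bp, in the 391 strong distal sites (upper bar of each trio), 4723 strong peaks within 2 kb of a start (middle bar) and 75938 other distal peaks of both libraries (lower bar); lines are 95% Wilson intervals. CTCF stands apart at 47.3% of the strong distal sites.

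Every one of the 391 sites held at least 1 footprint in each library, which was true of 82.4% of other distal peaks. The sites held 3.77 footprints per site in replicate 1 and 3.69 in replicate 2 (mean 3.73 ± 0.0597, SD over n = 2 libraries). Strong peaks near starts held 4.87 ± 0.0193 and other distal peaks 2.25 ± 0.0573 (n = 2 libraries each). Footprints are called from the same cleavages that set the signal, so these numbers are descriptions. Along the signal classes, footprints per peak in replicate 1 were 1.51 under 0.5, 2.49 from 0.5 to 1, 3.32 from 1 to 2, 3.60 from 2 to 3, 3.72 from 3 to 4, 3.47 from 4 to 5, 3.68 from 5 to 7.5, 4.25 from 7.5 to 10 and 3.74 from 10 upward. In replicate 2 they were 1.38, 2.47, 3.22, 3.49, 3.65, 3.54, 3.57, 4.18 and 3.93 in the same classes.

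The most footprints were in the site near Ccne1, which encodes cyclin E1, with 10 in replicate 1 and 8 in replicate 2. It was 360 bp wide with signals of 9.96 and 14.1. The next were the site near Gpr84, with 9 and 8, a site near Zfp395, with 8 and 8, a coding-exon site of Fbxl22, with 9 and 7, and a site near Cirbp, the cold-inducible RNA-binding protein, with 8 and 7. All 5 had at least 16 CpG in 200 bp and none held the CTCF word.

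Footprints were wide in the strong distal sites. Their median width was 23 bp in each library and the widest were 69 and 67 bp, against medians of 17 and 18 bp in strong peaks near starts and 10 bp in other distal peaks. Of the footprints in the sites, 90.0% of replicate 1 and 91.5% of replicate 2 overlapped one of the other library, against 58.9% and 60.9% in other distal peaks. Footprints covered 46.7% and 45.7% of the central 200 bp of the sites, against 15.5% and 15.6% in other distal peaks. An overlap of 1 bp was enough, and wide or dense footprints meet this more easily. The overlap shares therefore do not compare how reproducible footprints were in these groups.

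Footprints on the CTCF word were wider than the others of the same sites. In all 185 sites with it the word overlapped a footprint in each library (interval 98.0 to 100%), against 89.4% and 87.5% of 14082 other distal peaks with the word. The whole word lay inside footprints in 182 sites in replicate 1 and 183 in replicate 2. Footprints that overlapped the word had a median width of 37 bp in replicate 1 and 39 bp in replicate 2, against 21 and 17 bp for other footprints of the same sites. A wide footprint overlaps any given stretch more easily, so sorting by overlap favours wide ones. How much of the difference this makes was not tested. In sites without the word, the median was 19 and 22 bp.

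Around the word, footprint coverage formed a pattern seen in each library. A footprint covered the centre of the word in 100% of the sites of replicate 1 and 99.5% of replicate 2, against 84.8% and 82.3% of other distal peaks with the word. A second shoulder lay upstream: at 20 bp before the centre, coverage was 68.1% and 69.2%, against 46.9% and 43.8%. At 25 bp after the centre it was 2.16% and 1.62%, against 2.46% and 2.77%. Coverage was high again at 60 bp after the centre, with 78.9% and 68.6%, against 37.8% and 30.5%. Median signals in replicates 1 and 2 were 6.61 and 6.02 in these sites, against 1.24 and 1.13 in other distal peaks with the word. Footprints are called from the cleavages that set the signal, so differences in footprints on the word between these groups are descriptions.

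**Figure D4:**
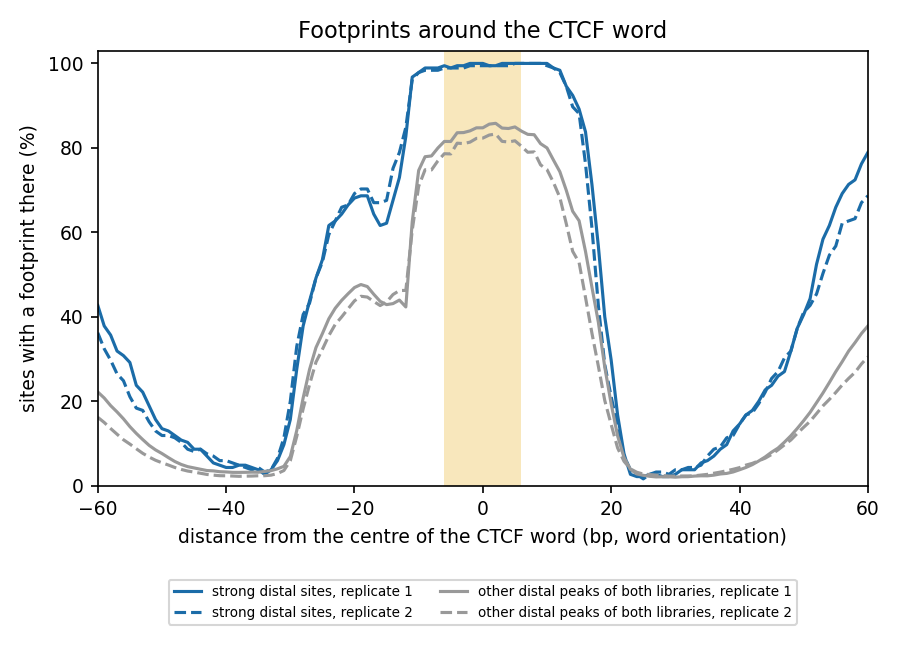
Share of sites with a footprint at each distance from the centre of the CTCF word, read in the word's orientation, for the 185 strong distal sites with the word (blue) and 14082 other distal peaks with it (grey); solid lines are replicate 1, dashed lines replicate 2, and the band marks the word. Coverage reaches 100% on the word, has a shoulder upstream and falls to 2.16% and 1.62% at 25 bp downstream.

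Other words lay in footprints to different degrees. The words differ in length, and footprints covered 46.7% and 45.7% of all bases in these windows in replicates 1 and 2. The whole GC box lay in footprints in 20 of 22 sites in each library, NFI in 29 and 31 of 33, NRF1 in 22 of 28 in each library, and RFX in 21 and 23 of 27. AP-1 lay in footprints in 5 and 4 of 24 sites, the E-box CAGCTG in 18 and 16 of 62, and the octamer in 0 of 7 in each library.

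Strong distal sites sat in longer stretches of raised cleavage than other distal peaks, and in shorter ones than strong peaks near starts. The stretches come from the same cleavages that set the signal, so these lengths are descriptions. In the deposited intervals with a false discovery rate of at most 0.05, the stretch that held the site had a median length of 561 bp in replicate 1 and 520 bp in replicate 2. It was 1059 and 952 bp for strong peaks near starts and 254 and 259 bp for other distal peaks. Within the sites, the median in replicate 1 was 443 bp with the CTCF word and 716.5 bp without it.

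The libraries differed by sequence class. Sites with the CTCF word were higher in replicate 2 in 58 of 185 cases (31.4%), with a median log2 ratio of replicate 2 over replicate 1 of -0.12. Sites without it were higher in replicate 2 in 132 of 206 cases (64.1%), with a median of 0.25. The direction was the same in other distal peaks, of which 33.4% with the word and 80.4% without it were higher in replicate 2. Strong peaks near starts were higher in replicate 2 in 88.5% of cases.

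Asking for 5 in both libraries joined sites of unlike content. Of the 351 distal peaks that reached 5 in replicate 1 but not in replicate 2, 78.3% held the CTCF word, and of the 247 that reached 5 in replicate 2 but not in replicate 1, 8.91% did. With replicate 1 alone the 742 distal peaks of 5 or more held the word in 62.0%, and with replicate 2 alone the 638 held it in 31.97%. Whether animals, their number, library preparation or depth set this difference was not tested, and with 1 library of each kind they cannot be told apart.

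The sites furthest apart between the libraries were all without the CTCF word. Highest in replicate 2 were a site near Zfp869, with 6.58 in replicate 1 and 12.6 in replicate 2 (log2 ratio 0.94), and sites near Ube2v1, Cdk5r1, Myt1l and Arap3, of which the last 3 held the RFX word. Highest in replicate 1 were a site of Jarid2, with 11.0 and 6.04 (log2 ratio -0.86), and sites of Lars2, Ubqln1, Gphn and Tspan15. These 10 sites were the 5 with the largest ratio in each direction.

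**Figure D5:**
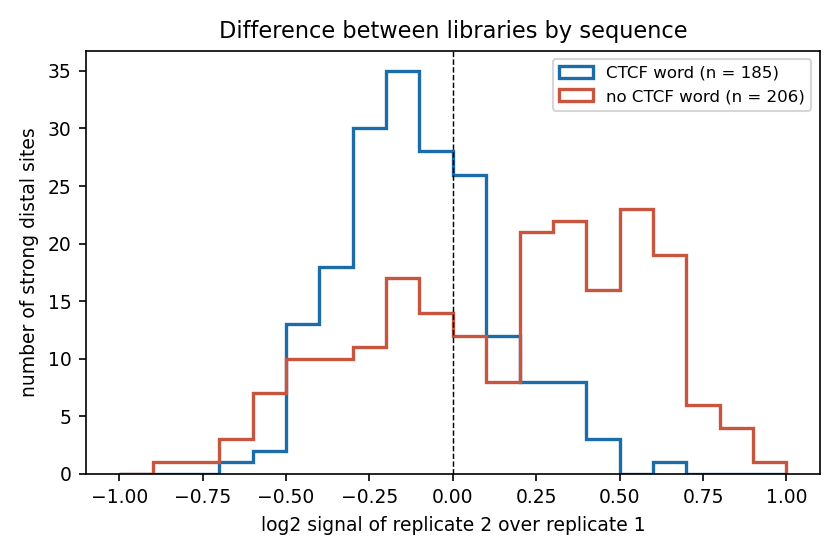
Number of strong distal sites by the log2 ratio of replicate 2 over replicate 1 signal, for 185 sites with the CTCF word and 206 without it. Medians are -0.12 with the word and 0.25 without it, and the dashed line marks equal signal.

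The sites were scattered over all 19 chromosomes. Successive sites on a chromosome were a median of 2.28 Mb apart, from 520 bp to 50.4 Mb (372 gaps). Another strong distal site lay within 10 kb of 25 sites and within 1 Mb of 206. Density ran from 0.713 sites per 10 Mb on chromosome 16 to 2.95 on chromosome 11. Per 1000 distal peaks of both libraries it ran from 2.46 on chromosome 16 to 8.45 on chromosome 7.

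The closest pair lay 520 bp apart upstream of the zinc finger gene Zfp869, with signals of 5.63 and 7.21 in one site and 6.58 and 12.6 in the other. The next pairs were near Tle2, 710 bp apart, in introns of the ion channel gene Trpm3, 860 bp apart, between Rnase12 and Olfr750, 1410 bp apart, and near Shf, 1870 bp apart. In the Rnase12 and Olfr750 pair both sites held the CTCF word, and in the Trpm3 pair 1 site did. A RefSeq start lay within 1 kb of both sites in each of the first 3 pairs. Within 10 kb of a site there was a median of 3 other peaks in each library, against 1 and 2 around other distal peaks.

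The CTCF word was on the plus strand in 91 of 185 sites. Pairs of words facing each other are known from loop anchors. Of 166 pairs of successive sites with the word, 43 faced each other, 39 faced away and 84 pointed the same way, and within 1000 kb the 26 pairs split 6, 6 and 14. These splits are near those of words pointing at random, with as many pairs the same way as facing each other and away together. The pairs pass over any of the 14082 other distal peaks with the word that lie between them. They need not be neighbours among all such peaks.

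The 391 sites were nearest to 374 protein-coding genes, of which 359 had 1 site, 13 had 2 and 2 had 3. Bahcc1, which encodes a chromatin protein with a BAH domain, had 3 sites within 8.48 kb and none held the CTCF word. Trpm3 had 3 sites over 612 kb, of which 2 held it. Genes with 2 sites included Mef2c, a neuronal transcription factor, both with the CTCF word, and Myt1l, a neuronal zinc finger repressor, neither with it. Others were Hlf, a PAR-domain leucine zipper factor, Nr4a1, Klrb1c, Ptma, Tle2 and Slc4a3. Being nearest to a gene does not show that a site acts on it.

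Activity-regulated genes, which neurons switch on after firing, were the list with the most sites. Of its 11 genes, 4 were the nearest gene of 5 sites (1.28% of the 391), against 85 of 75938 other distal peaks (0.112%). Near Nr4a1, 2 of these 5 sites lay 5.56 kb apart. The 10 lists were chosen with earlier results of these data known, and this one is singled out for its count. No test was made of the difference. Fos had a site 18.5 kb upstream with signals of 5.85 in replicate 1 and 9.25 in replicate 2, and Fosb one 10.1 kb upstream with 5.70 and 8.93. Both encode subunits of AP-1.

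Npas4, a neuronal activity-induced transcription factor, had a site 11.6 kb upstream with signals of 6.00 and 10.3, which lay 1518 bp from a RefSeq start of the same gene. Nr4a1, an orphan nuclear receptor, had sites 7.84 kb upstream, with 6.48 and 9.31, and 13.4 kb upstream, with 6.46 and 6.14. Of these 5 sites, the one 13.4 kb upstream of Nr4a1 was the only one with the CTCF word and the only one lower in replicate 2. Igf1r, Dlg4 (the postsynaptic scaffold PSD-95) and Mog (a myelin protein) had 1 site each, the last with signals of 5.56 and 7.41.

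The lists of excitatory and inhibitory neuron, astrocyte, microglia, vascular and imprinted genes had 0 sites. Over all 95 listed genes there were 8 sites (2.05%), against 1.17% of other distal peaks. Without the activity-regulated list there were 3 sites (0.767%), against 1.06%. The lists with 0 sites were nearest to between 0.0421% (vascular) and 0.166% (astrocyte) of other distal peaks. The 95% Wilson interval of 0 sites in 391 reaches 0.973%, so at this number of sites no difference was detectable.

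Repeated sequence touched a few of the highest signals. In 8 of the 391 sites (2.05%) over 50% of the 31-base words occurred more than once in the assembly, against 0.639% of other distal peaks. The site in an exon of Lars2, a mitochondrial leucyl-tRNA synthetase, had the highest signal of replicate 1, 31.6, with 18.5 in replicate 2. The sites near Igf2bp3, Il31ra and Gm8797 had 25.7 and 17.1, 19.2 and 13.4, and 17.8 and 12.2. Those near 4930467E23Rik and Gphn had 8.78 and 6.42, and 8.73 and 5.39. All 6 were lower in replicate 2, and how reads with several placements were treated is not given in the sources used here.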

How the data were processed

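Per the file headers and notes, the authors made each file from 1 library's own mm10 alignments; replicates were not pooled. For the aligner, the peak caller and the footprint caller, name and version were not given in the sources used here. The deposited peak lists hold a signal per peak, and their other value columns are constant. The deposited footprint files hold intervals with a constant score, which was not used. The deposited cleavage intervals hold a q-value (false discovery rate) and list only values up to 0.05. Depth is unknown, since no totals were given.

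Everything else was computed from these files with Python 3.11.15, NumPy 2.4.6, pandas 2.3.3, SciPy 1.17.1, numba 0.67.0 and matplotlib 3.10.9. Overlap meant at least 1 bp. Peaks were placed by their centre against GENCODE M21, as coding exon, other exon, intron or intergenic. Sequence was GRCm38 from RefSeq GRCm38.p6. The 19 words were searched on both strands in 200 bp at the centre, the longer ones by a degenerate consensus with mismatches allowed. A footprint belonged to a site if its centre lay inside. Selection and word search were tested on simulated data.

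Sites were named by rule: the 12 highest, the 5 with most footprints, the 5 closest pairs, genes with several sites, sites nearest to listed genes, 3 on each side of the threshold, the 5 highest for frequent words, the 5 largest library ratios each way, and up to 6 multicopy sites. Of the sites this rule takes, 1 is not named here but counts in the totals. The members, words and the 10 gene lists were chosen with earlier results of these data known. The CCAAT word, the RefSeq starts, the CpG limit of 10, the overlap of words the signal classes by each library alone and the comparison of sites strong in 1 library were added after seeing the data. No test over sites was made. Alternatives covered the threshold, the distance, the starts, the peak lists, the overlap, each library alone, multicopy sites, the chromosomes, the word search and footprint counting.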

Additional observations from a re-analysis of the deposited data

How the results depend on the processing

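The threshold of 5 is arbitrary, both libraries come from 1 group, and a footprint needs enough cleavages, so footprint numbers in low peaks are limited by depth, which is unknown. The 391 sites became 841 at a threshold of 4 and 88 at 7.5. The intergenic share of 57.3% became 62.5% at 7.5 and 64.3% beyond 5 kb from a start. The CTCF share of 47.3% became 54.2% at a threshold of 4, 28.4% at 7.5, 41.0% with the replicate 2 threshold set by rank (5.54), 41.3% with protein-coding starts only and 21.5% with no mismatch. The median of 4 footprints became 3 at a threshold of 4, 3.5 beyond 5 kb, 5 in 300 bp and 3.5 without sites within 2 kb of a RefSeq start, an alternative chosen after seeing the data. The median spacing of 2.28 Mb became 0.973 Mb at 4, 11.0 Mb at 7.5, 3.21 Mb by rank, 1.59 Mb beyond 1 kb, 3.61 Mb beyond 5 kb and 1.45 Mb with protein-coding starts only; fewer or more sites set spacing directly. Leaving out one replicate gave 638 to 742 sites, a CTCF share of 31.97 to 62.0%, 3 to 4 footprints and a spacing of 1.14 to 1.27 Mb, and the lower CTCF share came from replicate 2 alone. The CTCF share in sites of 7.5 or more was 10.2% with no mismatch, 40.7% by replicate 1 alone and 21.8% by replicate 2 alone, against 28.4%. The stricter peak lists, 50% overlap, placement by replicate 2, multicopy sites left out and chromosomes X and Y added moved none of these 5 results beyond their intervals or 1.5 times. The stricter lists returned the same 391 sites and the others gave 383 to 396, so these settings had little room to move a result. No paired analysis was possible because there was 1 group.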
